A study of Mus musculus with 9 samples.

Results

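The urea cycle and ammonia handling genes described here are 10 genes of the mouse liver, chosen by symbol among the 19944 genes of the deposited table. They are Cps1, Otc, Ass1, Asl and Arg1, which encode the 5 enzymes of the cycle, Nags, Slc25a15 and Slc25a13, which supply it with an activator and with transport, and Glul and Gls2, which make and split glutamine. Each symbol matched a single row, and all 10 passed the filter on low values, a mean normalized count of at least 10. RNA was taken from whole livers of male mice 60 days old, of the FVB strain named in the titles, and 9 libraries fall into 3 genotypes of 3. The KO mice lack Snd1, the KI mice carry Snd1 with a mutated Tudor domain, and the WT mice carry neither change. Which alleles were used, and in which cells Snd1 was lost, is not given in the sources used here. The SND1 protein carries nuclease-like repeats followed by a Tudor domain, which recognises methylated arginine, and the question behind the comparison is which transcripts depend on that domain.

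The urea cycle turns the ammonia released by amino acid breakdown into urea, which the kidney excretes. It begins in the mitochondria of hepatocytes, where ammonia is joined to bicarbonate and then to ornithine, and it ends in the cytosol, where arginine is split into urea and ornithine. Its enzymes are richest in the periportal hepatocytes, which receive portal blood, while glutamine synthetase in the last cells around the central vein takes up the ammonia that passed them.

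Libraries held between 59678412 and 66384374 reads. Snd1 had 227, 414 and 359 normalized counts in the KO libraries, 5373, 7941 and 5595 in the KI libraries and 6951, 8446 and 6512 in the WT libraries, so the values did not go against the labels. The label for cell type reads hepatocyte, and hepatocyte markers took 5.37% to 9.8% of the reads, but markers of other cells were present too. KI_3 had 6.1% of its reads in pancreas markers, WT_3 had 1.28% and KI_1 had 0.528%, while each of the other 6 libraries had at most 0.00525%. Acute phase genes, which the liver turns up in inflammation, took 8.55%, 21.6% and 22.3% of the reads in KO_1, KO_2 and KO_3, 1.77% to 2.71% in KI and 2.26% to 2.55% in WT. Levels below are normalized counts, that is, reads divided by the size factor of the library, and a gene was called where its adjusted p in limma was under 0.05.

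The promoters of 3 of the genes are printed as the sequence context of values that are followed below. Otc is the 1 gene that was called, Nags is 1 of 2 genes with a higher mean in KO than in WT, and Glul marks the pericentral end of the lobule. Each sequence is the 250 bases before the RefSeq transcription start on GRCm38.p6, on the forward strand, with the motifs found in capitals.
Otc promoter, chrX:10252055-10252304: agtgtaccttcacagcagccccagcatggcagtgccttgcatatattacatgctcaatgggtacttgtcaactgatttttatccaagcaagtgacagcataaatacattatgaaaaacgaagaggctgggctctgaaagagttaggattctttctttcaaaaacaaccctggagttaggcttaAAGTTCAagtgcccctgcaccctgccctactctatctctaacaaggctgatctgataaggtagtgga
Nags promoter, chr11:102145263-102145512: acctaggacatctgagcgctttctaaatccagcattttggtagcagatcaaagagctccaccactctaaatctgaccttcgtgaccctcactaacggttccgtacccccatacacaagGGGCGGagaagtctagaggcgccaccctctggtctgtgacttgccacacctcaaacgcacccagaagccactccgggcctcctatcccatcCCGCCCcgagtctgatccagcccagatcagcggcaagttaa
Glul promoter, chr1:153899679-153899928: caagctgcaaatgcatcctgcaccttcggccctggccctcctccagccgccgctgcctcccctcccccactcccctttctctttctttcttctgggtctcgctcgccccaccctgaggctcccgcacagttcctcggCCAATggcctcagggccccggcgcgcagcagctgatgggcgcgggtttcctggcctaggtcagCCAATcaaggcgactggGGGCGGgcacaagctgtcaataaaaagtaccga
The Otc sequence was 43.6% G and C with 1 CpG, and 20.1% of the 32851 promoters in the RefSeq table had a lower GC content. The Nags sequence was 55.6% G and C with 11 CpG, and the Glul sequence 64.8% with 15 CpG, against medians of 52.4% and 6 CpG over the table. The capitals in Otc mark AAGTTCA, a short core of the HNF4 motif that was looked for after the sequence was seen and that occurs on either strand of 3.47% of the promoters. Those in Glul mark CCAAT, which 33.8% of the promoters hold, and GGGCGG, the GC box, which 32.7% hold, and those in Nags mark the GC box on either strand. Also searched on both strands were the TATA box TATAAA, held by 12.4% of the promoters, the C/EBP-type motif TTGCNNAA, held by 9.56%, the CRE core TGACG, held by 17.8%, and the longer HNF4 core CAAAGTTCA, held by 0.335%. A match describes the letters of the window and does not show a binding site. Of the 10 genes 6 were matched to the RefSeq table.

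Of the 10 genes, Otc was the 1 that was called in KO livers, where it was lower than in WT livers and in KI livers. It encodes ornithine transcarbamylase, the mitochondrial enzyme that joins carbamoyl phosphate to ornithine to give citrulline, and lies on X:10252305-10321024 of GRCm38 on the forward strand (ENSMUSG00000031173). Its normalized count was 24049, 10682 and 7595 in KO_1, KO_2 and KO_3, 30589, 32766 and 27035 in KI_1, KI_2 and KI_3, and 30788, 31080 and 30942 in WT_1, WT_2 and WT_3. Every KO library lay below every KI and every WT library, KO_3 lowest of all, while KI and WT overlapped. The means were 14109 ± 8750 in KO, 30130 ± 2890 in KI and 30936 ± 146 in WT (SD, n = 3 each). KO livers had 2.48-fold less Otc than WT livers, at -1.31 ± 0.33 (SE) on the log2 scale with a 95% interval of -2.05 to -0.57 (limma, adjusted p = 0.0378). In KI it was 2.4-fold higher than in KO, at 1.27 ± 0.33 (SE) with an interval of 0.53 to 2.0 (limma, adjusted p = 0.044). KI against WT gave -0.04, with an interval of -0.78 to 0.69 (limma, adjusted p = 0.977). In RNA of whole liver, fewer cells of a type and less RNA per cell cannot be told apart.

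**Figure D1:**
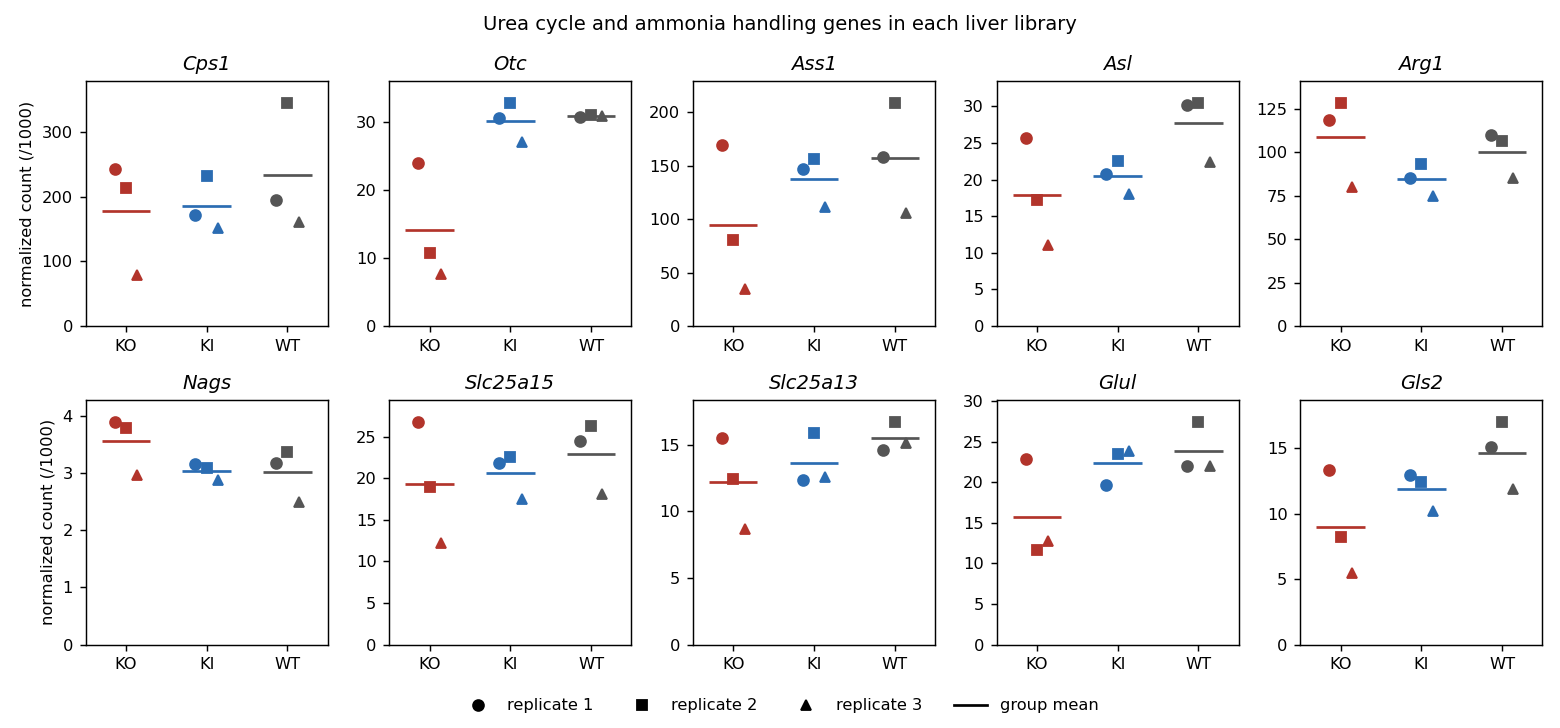
Normalized counts divided by 1000 (vertical axes, from 0) of the 10 genes in KO, KI and WT livers, with 1 symbol per library and a bar at the group mean. Otc in the 3 KO libraries sits between 7595 and 24049 and in the WT libraries between 30788 and 31080, while the groups overlap for the other 9 genes.

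The call on Otc changed with single libraries and with the tool. In the fit without KO_1, whose Otc was closest to WT, the difference between KO and WT was -1.78 with an adjusted p of 7.59e-05 in limma. It was -1.19 without KO_2 (adjusted p = 0.14 in limma) and -0.95 without KO_3 (adjusted p = 0.0881 in limma). With the size almost unchanged, the limma adjusted p was 0.0586, 0.051 and 0.0555 without KI_1, KI_2 and KI_3, and 0.113, 0.101 and 0.101 without WT_1, WT_2 and WT_3. On recovered reads edgeR gave -1.13 with an adjusted p of 0.0831, and DESeq2 gave -1.14 with an adjusted p of 0.00674. Over the 21 alternative settings the direction was the same in each and the call was kept in 9. The rise of KI over KO also kept its direction in all 21 and its call in 9, with limma adjusted p from 0.0655 to 0.16 in the fits without any 1 library other than KO_1 and 9.42e-05 without KO_1.

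**Figure D2:**
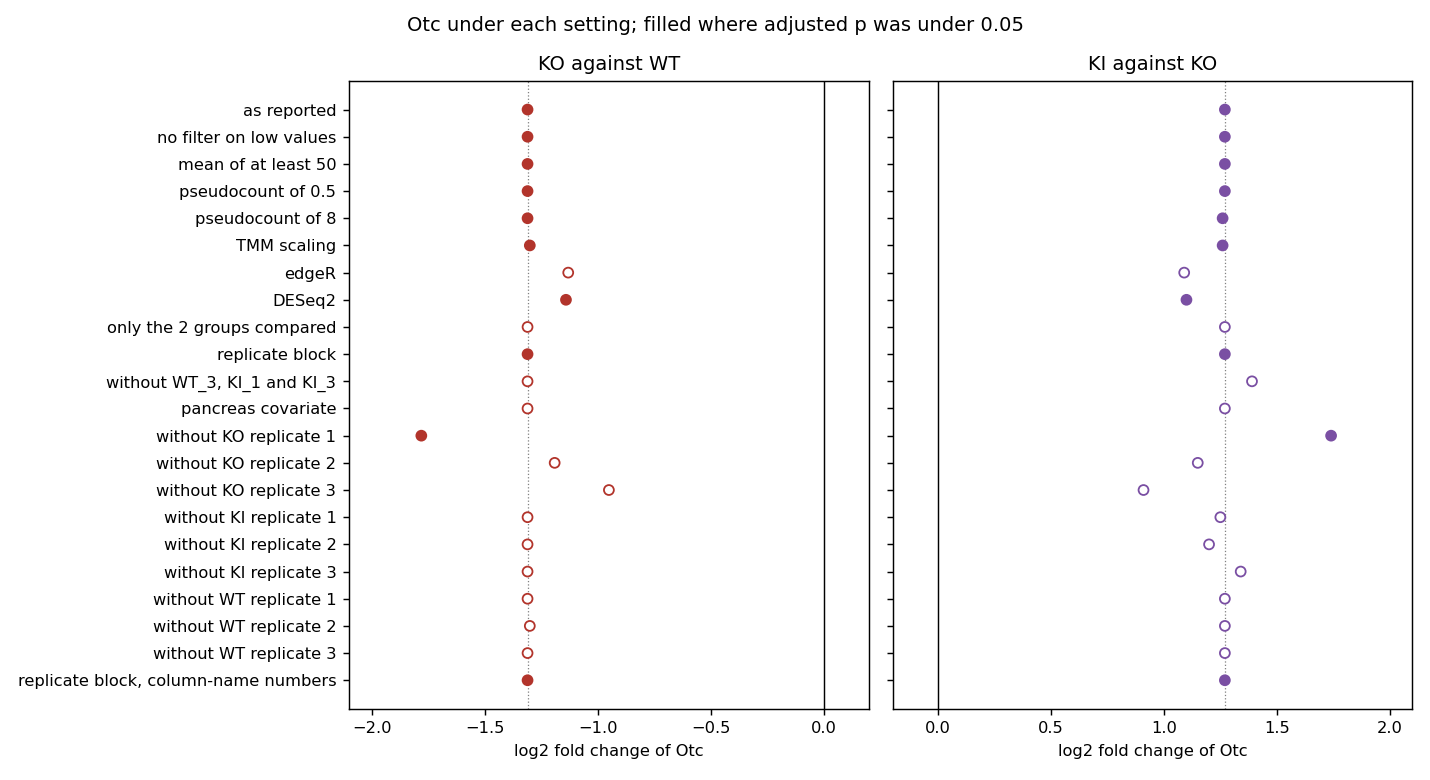
Log2 fold change of Otc (horizontal axes) for KO against WT and KI against KO under the reported setting and 21 alternatives (rows), filled where the adjusted p was under 0.05 and open elsewhere. All values for KO against WT lie between -1.78 and -0.95, and all for KI against KO between 0.91 and 1.74, with 9 of the 21 alternatives filled in each panel.

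Cps1, the mitochondrial synthetase that makes carbamoyl phosphate from ammonia and sets the entry into the cycle, had a spread within genotypes as wide as any difference between them. It lies on 1:67123026-67231259 on the forward strand (ENSMUSG00000025991). Its normalized count was 242723, 213525 and 78974 in KO, 172328, 232752 and 151662 in KI and 194722, 345082 and 160447 in WT. The highest of the 9 was WT_2 and the lowest KO_3, and all groups overlapped. KO against WT was -0.47 on the log2 scale with an interval of -1.49 to 0.56 (limma, adjusted p = 0.586), and KI against WT was -0.28 with an interval of -1.3 to 0.75 (limma, adjusted p = 0.867). The interval for KO includes both a fall of 2-fold and no change.

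Ass1 and Asl, the cytosolic enzymes that join citrulline to aspartate and then split off fumarate to leave arginine, had lower means in KO that did not pass the test. Ass1 (2:31470207-31520672, forward strand) had 169130, 80328 and 34167 normalized counts in KO, 146380, 155718 and 110988 in KI, and 157960, 208154 and 105216 in WT. KO_1 exceeded 2 of the 3 WT libraries while KO_2 and KO_3 lay below all of them, and KO against WT was -0.97 ± 0.5 (SE; limma, adjusted p = 0.266). Asl (5:130011258-130029247, reverse strand) had 25692, 17150 and 11035 in KO, 20711, 22543 and 18087 in KI, and 30215, 30427 and 22454 in WT. KO against WT was -0.7 ± 0.27 (SE), with an unadjusted p of 0.0263 and an adjusted p of 0.139 in limma. KI against WT was -0.43 for Asl, the largest such difference in size of the 10 genes, with an interval of -1.03 to 0.17 (limma, adjusted p = 0.577), and -0.15 for Ass1 (limma, adjusted p = 0.942).

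Arg1, the arginase that releases urea and closes the cycle, and Nags, the synthase of N-acetylglutamate without which Cps1 is inactive, had higher means in KO than in WT. Arg1 (10:24915221-24927484, reverse strand) had 118530, 128173 and 80012 normalized counts in KO, 85337, 93185 and 75009 in KI, and 109645, 106478 and 85018 in WT. Nags (11:102145513-102149477, forward strand) had 3894, 3791 and 2972 in KO, 3156, 3089 and 2881 in KI, and 3165, 3371 and 2494 in WT. KO_1 and KO_2 exceeded all 3 WT libraries for both genes, and KO_3 fell below them for Arg1 and within them for Nags. Neither difference passed: KO against WT was 0.1 for Arg1 with an interval of -0.43 to 0.62 (limma, adjusted p = 0.844) and 0.24 for Nags with an interval of -0.08 to 0.56 (limma, adjusted p = 0.333). The sign for Arg1 was not stable, since without WT_3, KI_1 and KI_3, the libraries with pancreas transcripts, it was -0.02.

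Slc25a15 and Slc25a13, the mitochondrial carriers that exchange ornithine for citrulline and aspartate for glutamate, had means in KO below those in WT that did not pass the test. Slc25a15 (8:22375551-22398597, reverse strand) had 26822, 19027 and 12213 normalized counts in KO, 21853, 22525 and 17551 in KI, and 24451, 26316 and 18107 in WT. Slc25a13, also called citrin (6:6041218-6217173, reverse strand), had 15529, 12438 and 8709 in KO, 12349, 15899 and 12572 in KI, and 14580, 16723 and 15152 in WT. KO_3 was the lowest of the 9 libraries for both, and the groups overlapped. KO against WT was -0.3 for Slc25a15 (limma, adjusted p = 0.529) and -0.38 for Slc25a13, whose interval of -0.82 to 0.06 included 0 (limma, adjusted p = 0.271).

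The glutamine pair had low values in KO_2 and KO_3. Glul, glutamine synthetase (1:153899944-153909723, forward strand), had 22910, 11619 and 12818 normalized counts in KO, 19726, 23504 and 23861 in KI, and 21979, 27464 and 21985 in WT. Gls2, the glutaminase of adult liver that feeds ammonia to the cycle in periportal cells (10:128194457-128210004, forward strand), had 13344, 8227 and 5453 in KO, 12983, 12454 and 10216 in KI, and 15062, 17016 and 11898 in WT. KO_2 and KO_3 were below every KI and WT library for both genes, as they were for Otc, Ass1 and Asl. For the glutamine pair KO_1 was within the range of WT, while for Otc it was below every WT library. KO against WT was -0.65 ± 0.24 (SE) for Glul, with an unadjusted p of 0.0193 and an adjusted p of 0.116 in limma, and -0.78 ± 0.28 (SE) for Gls2, with an unadjusted p of 0.0178 and an adjusted p of 0.112 in limma. KI against KO was 0.57 for Glul (limma, unadjusted p = 0.0366, adjusted p = 0.17) and 0.49 for Gls2 (limma, adjusted p = 0.311). Exons of Gls2 overlap those of Spryd4 on the opposite strand, which had a mean of 2154.4, those of Glul overlap Teddm2 (11.1) and those of Nags overlap Gm11586 (35.1), and the strand setting of the counting is not given in the sources used here.

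Counted over the 10 genes, KO against WT gave 0 called higher and 1 called lower, Otc, where 8.83% of all genes tested were called, 4.63% higher and 4.2% lower, so the share called was close to that over all genes. Of the 10, 8 had a negative log2 fold change, against 7614 of the 15238 genes tested, and the median was -0.56, against 0.001 over all genes. At an unadjusted p under 0.05 there were 4 of the 10 in limma (Otc, Asl, Glul and Gls2), against 25.0% of all genes. The groups did not overlap for 1 of the 10, again Otc, where 29.1% of all genes did not overlap. In KI against KO, 1 of the 10 was called, Otc higher, where 8.45% of all genes were called and 3.6% called higher, and the groups did not overlap for 1 of the 10, against 26.4% of all genes. At an unadjusted p under 0.05 there were 2 of the 10, Otc and Glul, against 24.9% of all genes, and the median was 0.23, against 0.011. KI against KO and KO against WT share the KO libraries, and both comparisons against WT share the WT libraries.

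Between KI and WT livers 0 of the 10 genes were called by limma, where 0.0263% of all genes, 4 of 15238, were called. At an unadjusted p under 0.05 there were also 0 of the 10, against 11.6% of all genes, and edgeR and DESeq2 called 0 as well. The groups did not overlap for 0 of the 10, against 19.6% of all genes. The log2 fold changes ran from -0.43 for Asl to 0.03 for Nags, 9 of them negative where 7517 of the 15238 genes tested were, with a median of -0.17, against 0.004 over all genes. For Cps1 and Ass1 the KI interval reached down to -1.3 and -1.26, so those intervals include a fall of 2-fold as well as no change.

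**Figure D3:**
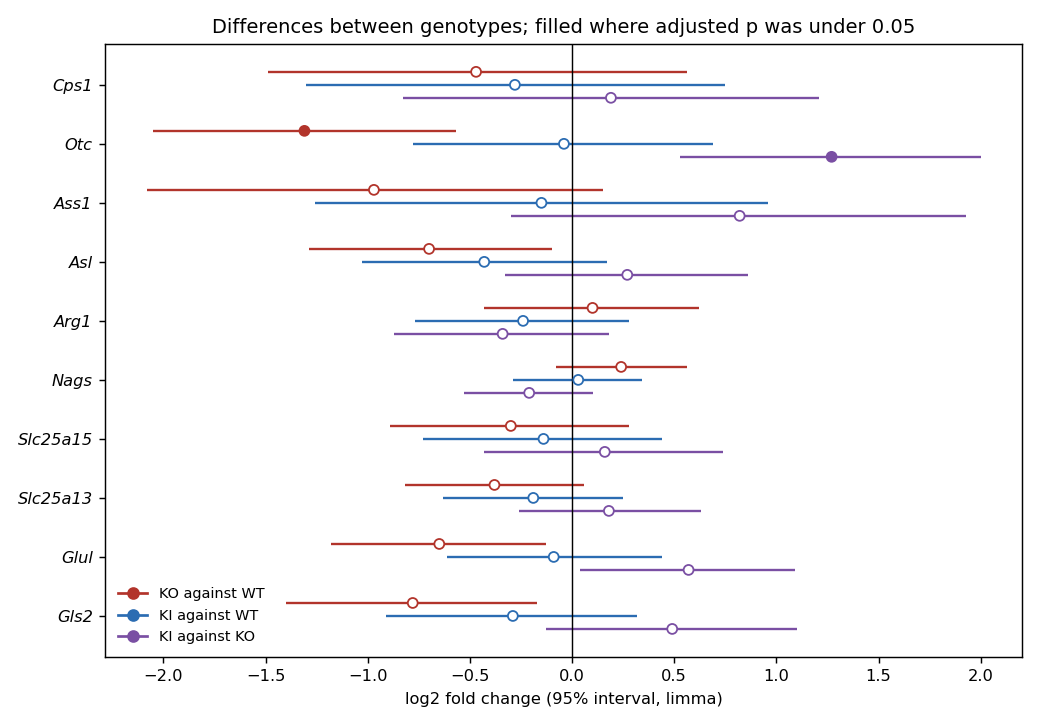
Log2 fold changes (horizontal axis) of the 10 genes for KO against WT, KI against WT and KI against KO, with 95% intervals from limma and filled points where the adjusted p was under 0.05. Filled points are Otc at -1.31 in KO against WT and at 1.27 in KI against KO, and the interval of every KI against WT value includes 0.

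Within KO the values of the 10 genes differed widely by library. KO_1 was the highest KO library for 9 of the 10 genes and KO_3 the lowest for 9, where KO_1 was the highest for 36.7% and KO_3 the lowest for 37.8% of all genes tested. The other genotypes had such an order too: WT_2 was the highest WT library for 9 of the 10 and KI_2 the highest KI library for 7. Over all genes tested they were the highest for 35.2% and 37.5%. Averaged over the 10 genes, the log2 deviation from the WT mean was 0.06, -0.49 and -1.13 in KO_1, KO_2 and KO_3, -0.18, -0.03 and -0.34 in KI_1, KI_2 and KI_3, and 0.02, 0.23 and -0.25 in WT_1, WT_2 and WT_3. KO_3 lay below every WT library for 9 of the 10, KO_2 for 6 and KO_1 for 1, Otc, where 34.9%, 33.9% and 30.7% of all genes did. KI_1, KI_2 and KI_3 lay below every WT library for 4, 0 and 7 of the 10, where 32.5%, 27.0% and 31.5% of all genes did. The coefficient of variation within KO was widest for Ass1 at 72.6% and Otc at 62.0% and narrowest for Nags at 14.2%. In WT, Otc had the smallest of the 10, 0.472%, beside 42.1% for Cps1.

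The fits without KO_1 show how much that 1 library set the count of calls. Without it 6 of the 10 genes were called lower in KO than in WT by limma, namely Otc, Glul, Gls2, Asl, Ass1 and Slc25a13, where 9.27% of all genes were called lower in that fit. Their log2 fold changes were then -1.78, -0.96, -1.11, -1.0, -1.53 and -0.57, with adjusted p from 7.59e-05 for Otc to 0.0495 for Slc25a13. In KI against KO 4 of the 10 were called higher without KO_1, namely Otc, Glul, Gls2 and Ass1, where 8.1% of all genes were. Without any other single library 0 of the 10 were called in either comparison by limma.

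**Figure D4:**
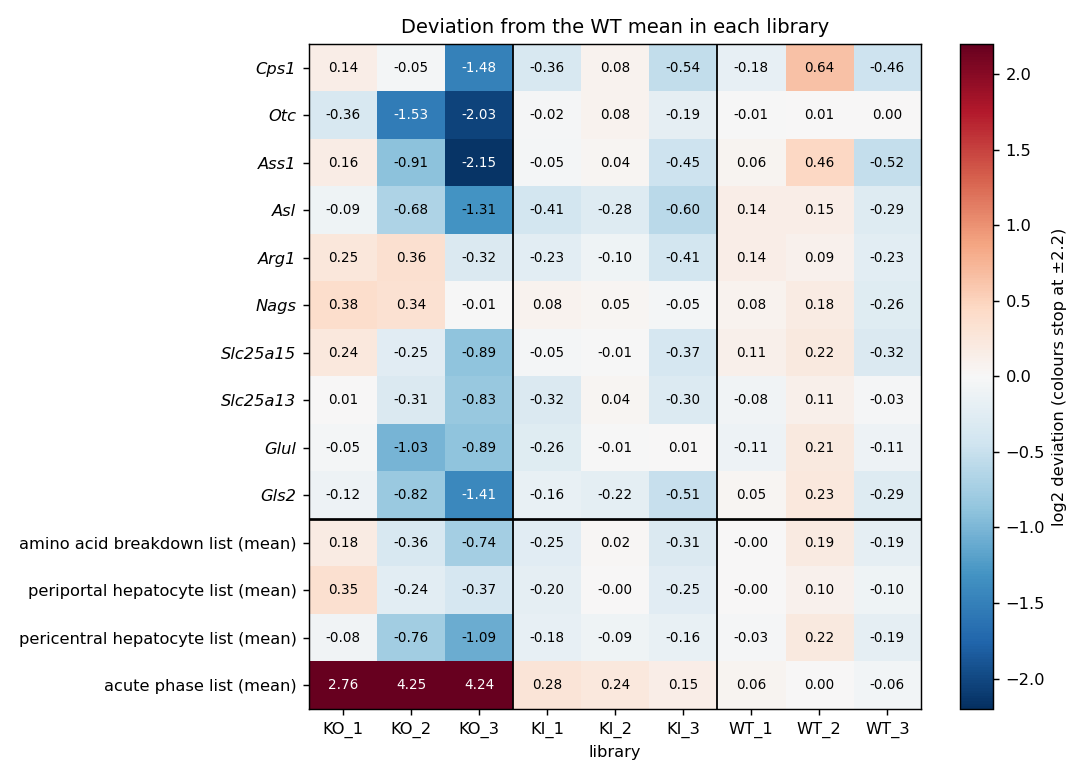
Log2 deviation from the WT mean (colour and printed value) of the 10 genes and the mean over 4 gene lists (rows) in each of the 9 libraries (columns). Among the KO columns KO_3 is lowest and KO_1 highest for 9 of the 10 genes each, and the acute phase list stands at 2.76, 4.25 and 4.24 in KO_1, KO_2 and KO_3, beyond the end of the colour scale.

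Markers of other cells and of inflammation also differed between these libraries. The mean deviation of the 27 acute phase genes tested was 2.76, 4.25 and 4.24 in KO_1, KO_2 and KO_3, between 0.15 and 0.28 in KI and between -0.06 and 0.06 in WT, so KO_1, the KO library with the highest values of the urea cycle genes, had the lowest acute phase values of KO. Of the 27, 23 were called higher and 0 lower in KO against WT, where 4.63% of all genes were called higher and 4.2% lower. The 8 neutrophil and monocyte markers tested stood at 0.2, 2.18 and 3.15 in the KO libraries, -0.69 to 1.13 in KI and -1.04 to 0.62 in WT, at a summed level of at most 0.0034% of the reads in any library. The 13 Kupffer cell and macrophage markers, present in all libraries, stood at 0.16, -0.1 and 1.09 in KO, -0.35 to 0.48 in KI and -0.52 to 0.31 in WT. The 9 hepatocyte markers stood at 0.29, 0.19 and -0.33 in KO, -0.27 to 0.1 in KI and -0.21 to 0.16 in WT. In KO against WT they ran from -0.99 to 2.44 on the log2 scale, with a median of -0.06. The 1 called was Fgb, higher, which is also in the acute phase list, so these means are partly set by an acute phase gene. The markers of endothelium took at most 0.0455% of the reads in any library, those of stellate cells and fibroblasts 0.0361%, of cholangiocytes 0.0012%, of lymphocytes 0.00057% and of muscle and fat 0.00204%, and of 5 kidney markers 0 were matched. The part of these differences in the values of the 10 genes was not tested.

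The pancreas markers, 16 genes none of which was at 0 throughout, were highest in KI_3, WT_3 and KI_1. KI_3 was the lowest KI library for 8 of the 10 genes and WT_3 the lowest WT library for 7, where they were lowest for 33.7% and 36.0% of all genes, while KI_1 was the lowest of KI for 2 and the highest for 2. Without those 3 libraries the difference in Otc between KO and WT was -1.31 (limma, adjusted p = 0.252, with 30 genes called in all), and with the pancreas level as a covariate it was -1.31 (limma, adjusted p = 0.082).

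Read per 1000 exonic bases, so that genes can be set beside each other, 3 genes stood above the rest in each genotype. In KO the order was Arg1 at 48880 ± 11400 normalized counts per kilobase, Ass1 at 39164 ± 28400 and Cps1 at 32116 ± 15700 (SD, n = 3), whose ranges overlapped, then Glul at 4749 ± 1870 and Otc, with only Slc25a13, Gls2 and Nags below it, at 3327 ± 2060. In KI Ass1 led at 57040 ± 9770, clear of Arg1 at 37931 ± 4090 and Cps1 at 33408 ± 7590. Otc came next at 7105 ± 682, with a range that overlapped that of Glul at 6730 ± 690. In WT Ass1 had 65083 ± 21300, Arg1 45054 ± 6010, Cps1 42019 ± 17700, Otc 7295 ± 34.4 and Glul 7165 ± 952, and the ranges of Otc and Glul overlapped. Nags was lowest, at 1252 ± 178 in KO, 1072 in KI and 1061 ± 162 in WT, with a range below that of the next gene in each genotype. Between Glul and Gls2 in KO each gene's range overlapped the next one's, and in WT the same held from Asl down to Slc25a13.

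All 10 genes together took 1.03%, 0.804% and 0.463% of the reads in KO_1, KO_2 and KO_3, 0.82%, 1.01% and 0.636% in KI_1, KI_2 and KI_3, and 0.993%, 1.34% and 0.776% in WT_1, WT_2 and WT_3. The means were 0.767% ± 0.288 in KO, 0.823% ± 0.189 in KI and 1.04% ± 0.285 in WT (SD, n = 3 each), with all groups overlapping. With the reads of acute phase and pancreas genes left out of the total, they were 0.917% in KO, 0.858% in KI and 1.07% in WT.

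Ratios within a library do not depend on its scaling. The pairs given here were chosen after the values were seen and carry no test. Per 100 counts of Arg1 there were 20.3, 8.33 and 9.49 of Otc in KO, 35.8, 35.2 and 36.0 in KI and 28.1, 29.2 and 36.4 in WT, and KO did not overlap KI or WT. Per 100 counts of Cps1 there were 9.91, 5.0 and 9.62 of Otc in KO, 17.8, 14.1 and 17.8 in KI and 15.8, 9.01 and 19.3 in WT, and WT_2 fell among the KO values. Glul per 100 Gls2 was 172, 141 and 235 in KO, 152, 189 and 234 in KI and 146, 161 and 185 in WT, with all groups overlapping.

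Across the 9 libraries, which span the 3 genotypes so that differences between genotypes enter each value, 41 of the 45 pairs of the 10 genes had a Pearson r above 0, with a median of 0.81 and a range of -0.23 to 0.97. Gls2 went with Ass1 and with Asl at 0.97 each and Otc with Glul at 0.91, while Arg1 went with Nags at 0.82. Otc had -0.07 with Arg1 and -0.23 with Nags. Of about 12400 other genes with a mean of at least 50, those most like the mean of the 5 cycle enzymes were Dgcr2 (r = 0.989), Abat (0.985), Ttc38 (0.984), Tmem86b (0.98) and Hpd (0.977). For Glul they were Bckdhb (0.982), Tmem14c (0.979), Cpped1 (0.973), Ptk2b (0.969) and 2310040G24Rik (0.969). Among the other genes, the single most like gene was Car3 for Otc (0.996), Rilp for Ass1 (0.992), Trak1 for Asl (0.989), Kcnn2 for Arg1 (0.969), Gm9864 for Nags (0.951), Gfm2 for Slc25a15 (0.984), Hsd17b4 for Slc25a13 (0.982) and Bltp2 for Gls2 (0.985). These are descriptions over 9 points and carry no test.

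Among 24 other genes tested that handle ammonia, glutamate, glutamine or arginine, 1 was called higher and 5 lower in KO against WT, where 4.63% of all genes were called higher and 4.2% lower. Their median was -0.29 on the log2 scale, against 0.001 over all genes. At an unadjusted p under 0.05 there were 12 of the 24 in limma, against 25.0% of all genes. Gpt2, the mitochondrial alanine aminotransferase, had 21123, 19110 and 13867 normalized counts in KO against 37609, 38441 and 29104 in WT, and fell by 0.97 on the log2 scale (limma, adjusted p = 0.0135). Odc1, the ornithine decarboxylase that starts polyamine synthesis, had a mean of 2764 in KO, 5795 in KI and 4374 in WT, at -0.67 in KO against WT (limma, adjusted p = 0.00759) and 1.08 in KI against KO (limma, adjusted p = 8.44e-04). Nit2, an omega-amidase of glutamine breakdown, was at -0.76 in KO against WT (limma, adjusted p = 0.00919) and 0.52 in KI against KO (limma, adjusted p = 0.0427). Asrgl1, an asparaginase, had a mean of 474 in KO, 492 in KI and 902 in WT, at -0.95 in KO against WT (limma, adjusted p = 0.00646), and -0.88 in KI against WT, which was not called (limma, adjusted p = 0.0884). In KI against KO 2 of the 24 were called higher and 1 lower, where 8.45% of all genes were called and 3.6% called higher. The 1 called lower was Aspg, another asparaginase, at -0.51 (limma, adjusted p = 0.0236). Its mean was 5434 in KO, 3835 in KI and 5493 in WT, and KI against WT was -0.52, not called (limma, adjusted p = 0.13).

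Slc25a12, which carries out the same exchange of aspartate for glutamate as Slc25a13 and is known from muscle and brain, had 1131, 1317 and 1186 normalized counts in KO, 651, 694 and 702 in KI and 746, 785 and 692 in WT. All KO libraries were above all others, and the difference was 0.71 in KO against WT (limma, adjusted p = 0.00509) and -0.83 in KI against KO (limma, adjusted p = 0.00268). It was the 1 of 12 mitochondrial carriers called in KO against WT, where 8.83% of all genes were called. Slc25a47, a carrier of liver mitochondria, was called with it in KI against KO at -1.03 (limma, adjusted p = 0.00927), which makes 2 of 12, beside 8.45% of all genes. The mean of Slc25a47 was 24109 in KO, 11756 in KI and 19365 in WT, with -0.72 in KI against WT, not called (limma, adjusted p = 0.188). Of 17 amino acid transporters 0 were called by limma, edgeR or DESeq2 in KO against WT, and 2 had an unadjusted p under 0.05. Of the 12 carriers 4 had an unadjusted p under 0.05 in that comparison in limma, against 25.0% of all genes.

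Of 30 genes of amino acid breakdown, whose products feed the cycle, 1 was called higher and 2 lower in KO against WT. That share was close to the 8.83% of all genes called, and the median was -0.42, against 0.001 over all genes. At an unadjusted p under 0.05 there were 14 of the 30 in limma, against 25.0% of all genes. Without KO_1, KO_2 and KO_3 in turn 18, 1 and 2 of the 30 were called, where 2516, 501 and 778 genes were called in all. Sdsl, a serine dehydratase-like enzyme, rose by 1.74 (limma, adjusted p = 0.00421) to a mean of 914 in KO, against 281 in KI and 267 in WT. Shmt1, the cytosolic serine hydroxymethyltransferase, was at -0.8 (limma, adjusted p = 0.0165) and Acadsb, a dehydrogenase of isoleucine breakdown, at -0.7 (limma, adjusted p = 0.0309). In KI against KO 2 of the 30 were called higher and 2 lower, where 8.45% of all genes were called and 3.6% called higher. Acadsb and Ivd, a dehydrogenase of leucine breakdown, were higher at 0.67 and 0.99 (limma, adjusted p = 0.038 and 0.0484). Sdsl and Amt, of the glycine cleavage system, were lower at -1.64 and -0.67 (limma, adjusted p = 0.00576 and 0.019). The mean of Amt was 2965 in KO, 1872 in KI and 2602 in WT, with -0.49 in KI against WT, not called (limma, adjusted p = 0.223). Of 20 regulators of the cycle, among them Hnf4a at 0.32 and Cebpa at -0.00, 0 were called in KO against WT by limma and edgeR. In limma 1 had an unadjusted p under 0.05, and DESeq2 called 1, where it called 2293 genes in all. Ppargc1a, a coactivator of fasting metabolism, was called in KI against KO at -1.37 (limma, adjusted p = 0.0295), with a mean of 356 in KI, against 941 in KO, beside 510 in WT.

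Other genes of the periportal and the pericentral hepatocytes were listed because the cycle enzymes and Glul lie at those ends of the lobule. Of 15 periportal genes 3 were called higher and 2 lower in KO against WT, beside 8.83% of all genes called, with a median of -0.32, and the mean deviation of the list was 0.35, -0.24 and -0.37 in KO_1, KO_2 and KO_3. Cdh1, the epithelial cadherin, at 1.15 (limma, adjusted p = 0.0102) and Ctsc, a lysosomal protease, at 0.84 (limma, adjusted p = 0.0124) rose, and Igf1, a growth factor, at -0.66 (limma, adjusted p = 0.0234) and Hsd17b13, a lipid droplet enzyme, at -0.48 (limma, adjusted p = 0.0241) fell. Sox9, a factor of bile duct cells that is also in the cholangiocyte marker list, rose too, at 1.49 (limma, adjusted p = 0.0249). Of 20 pericentral genes 1 was called higher, Slc13a3, a carrier of dicarboxylates, at 1.21 (limma, adjusted p = 0.0015), and 4 lower, with a median of -0.64 and list means of -0.08, -0.76 and -1.09 in the KO libraries. At an unadjusted p under 0.05 there were 6 of the 15 periportal and 11 of the 20 pericentral genes in limma, against 25.0% of all genes. Cyp7a1, which controls the classic pathway of bile acid synthesis, had a mean of 910 in KO, 10818 in KI and 10223 in WT, at -3.96 in KO against WT (limma, adjusted p = 0.00822). Rgn, a calcium-binding lactonase, was at -1.52 (limma, adjusted p = 0.0156) and Aldh1a1, a retinal dehydrogenase, at -0.9 (limma, adjusted p = 0.014). In KI against KO 0 periportal genes were called higher and 2 lower, and 2 pericentral genes higher and 1 lower. Over all genes 8.45% were called and 3.6% called higher. The periportal genes were Ctsc and Sox9, at -0.84 and -1.28 (limma, adjusted p = 0.0131 and 0.0453). Of the pericentral genes Cyp7a1 and Rgn were called higher at 4.03 and 1.43 (limma, adjusted p = 0.00812 and 0.0207) and Slc13a3 lower at -1.06 (limma, adjusted p = 0.00286).

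In KI against WT 0 genes of these 7 lists were called by limma or edgeR. At an unadjusted p under 0.05 in limma there were 4 of 24 partners, 1 of 17 transporters, 1 of 12 carriers, 4 of 30 genes of breakdown, 3 of 20 regulators, 3 of 15 periportal genes and 1 of 20 pericentral genes, where 11.6% of all genes were. DESeq2 called 2 partners, 1 carrier, 1 regulator and 1 pericentral gene, where it called 372 of the 15238 genes tested. Without WT_3, KI_1 and KI_3, where 30 genes were called over the whole table in KO against WT, 0 genes of the 7 lists and 0 of the 10 urea cycle and ammonia handling genes were called, beside 4 of the 27 acute phase genes. With the pancreas level as a covariate, limma called 137 genes in KI against KO. They included 2 partners and 0 carriers, breakdown, regulator, periportal or pericentral genes. Leaving out KO_2 gave 400, with 1 partner, 2 carriers, 1 gene of breakdown, 0 regulators, 0 periportal and 2 pericentral genes. Leaving out KO_1 gave 2301, with 10 partners, 3 carriers, 12 genes of breakdown, 2 regulators, 4 periportal and 9 pericentral genes.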

How the data were processed

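RNA of 9 mouse livers was prepared with a stranded mRNA kit, per the labels' protocols. Alignment to GRCm38 used TopHat2 and Bowtie2, and featureCounts counted the reads per gene, per the submitters' processing notes, while versions, annotation, strand setting and scaling tool are not given in the sources used here. The deposited values are a signal of normalized read counts. They came out as whole reads divided by a size factor of 0.8921 to 1.1051, with a tolerance of 0.0051, in at least 99.995% of the values of a library, so reads were recovered. Recovered totals ran from 59678412 to 66384374 reads.

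The values were tested as log2(value + 1) with limma 3.58.1 in R 4.3.3, with a trend of variance with abundance, in the 15238 genes with a mean of at least 10. One mean per genotype was fitted, leaving 6 residual degrees of freedom. Tests were two-sided, with Benjamini-Hochberg adjustment over all genes tested and a call at an adjusted p under 0.05. Fold changes on this scale are slightly understated for low genes. Nothing in the labels ties libraries to litters or days, so the p-values reflect only how these 9 samples vary. On the recovered reads edgeR 4.0.16 and DESeq2 1.42.0 were run as alternatives.

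Levels per kilobase use the exonic bases of GENCODE M21, taken over all transcripts of a gene together. That length can exceed the length of the transcript expressed, which would lower the level and could change the order of genes. The 10 genes, the 8 pathway lists and the 10 marker lists were chosen with earlier results of these data known. Named genes are the 10 genes, Snd1, the called members of each list (up to 4 per comparison, by adjusted p) and the genes most like Glul, the mean of the cycle enzymes and each other gene, of which 1 is not reported here. Hnf4a and Cebpa among the regulators and Spryd4, Teddm2 and Gm11586 as overlapping genes, were named after their values were seen. No 2 libraries agreed within counting error (smallest chi-square per degree of freedom 68.1). Python 3.11 with pandas 2.3.3, numpy 2.4.6, scipy 1.17.1 and matplotlib 3.10.9 was used.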

Additional observations from a re-analysis of the deposited data

Results flagged for a closer look

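Otc had different effects in the KI and KO genotypes: the effect of KI minus that of KO, which is the KI against KO comparison itself, was 1.27 on the log2 scale (limma, adjusted p = 0.044), higher in 3 of 3 KI libraries than in every KO library. It was singled out because the test of the difference between the effects passed, and without any 1 library other than KO_1 that test no longer passed (limma adjusted p from 0.0655 to 0.16).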

How the results depend on the processing

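With 3 libraries a genotype, 1 library can decide a call. Of the 10 genes 1 was called in KO against WT, against 0 with edgeR, with only the 2 groups compared, without the 3 libraries with pancreas transcripts and with their level as a covariate, and 0 to 6 when a single library was left out. In KI against KO the count was 1, against 0 with edgeR, with only the 2 groups compared and with the covariate, and 0 to 4 when a library was left out. In KI against WT it was 0 throughout.

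Over all genes, KO against WT called 1346, against 2293 with DESeq2, 871 with only the 2 groups, 30 without the pancreas libraries, 750 with the covariate and 501 to 2516 when a library was left out. KI against KO called 1287, against 2286 with DESeq2, 608 with only the 2 groups, 137 with the covariate and 400 to 2301 when a library was left out. KI against WT called 4, against 8 with no filter, 7 at a mean of at least 50, 1 with edgeR and 372 with DESeq2. That comparison called 28 with only the 2 groups, 0 with the covariate and 0 to 35 when a library was left out. Without the pancreas libraries KI_2 was the only KI library, so no count is given for the comparisons with KI.

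Same-numbered libraries did not all deviate together (r from -0.136 to 0.568, and a library was most like its own number in 9 of 18 checks). The highest r was that of KI_3 and WT_3, which both held pancreas transcripts. These values cannot decide whether equal numbers mark pairs, and no pairing was used in the main fit. With the title number as a replicate block 2 of the 10 genes were called in KO against WT, Otc and Gls2 (limma, adjusted p = 0.0295 and 0.0391). In that fit 1551 of the 15238 genes tested were called, against 1346 in the main fit. With the numbers of the column names, added after the data were seen, KI against WT called 8 genes in all.

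Signs turned in comparisons in which the gene was not called. Without the pancreas libraries, KO against WT was -0.02 for Arg1. KI against WT, with KI_2 as the only KI library left, was 0.08 for Otc, -0.08 for Nags and 0.03 for Slc25a13. With the covariate the log2 fold change was -0.02 for Arg1 in KO against WT and 0.01 for Ass1 in KI against WT. When a library was left out, KO against WT ran from -0.77 to 0.04 for Cps1 and -0.03 to 0.31 for Arg1. KI against WT ran from -0.51 to 0.05 for Cps1, -0.11 to 0.03 for Otc, -0.41 to 0.08 for Ass1, -0.1 to 0.11 for Nags and -0.14 to 0.02 for Glul. KI against KO ran from -0.32 to 0.49 for Cps1, -0.04 to 0.57 for Asl, -0.14 to 0.43 for Slc25a15 and -0.04 to 0.38 for Slc25a13. The cause was not tested for any of these. For genes as abundant as these, depth limits the values less than the variation among libraries does.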
